A study of Mus musculus with 24 samples.

Results

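Levels of 33 keratin, cornification and desmosome genes were examined in mouse mammary tumours. They are 18 keratins, 7 proteins of cornification and 8 parts of the desmosome, chosen by name as a set of genes of stratified and simple epithelia out of the 46318 genes in the count files. Earlier results of these libraries were known when the set and the libraries KO 1 and KO 12 were picked, so levels that led to this choice are given as a description. Bulk RNA sequencing was done on frozen, homogenised tumours of MMTV-PyMT mice, in which the mouse mammary tumour virus promoter drives the polyoma middle T oncogene mainly in the mammary epithelium. The 12 libraries labelled KO come from the PyMT+ colony with the genotype NR0B2-/- (also written SHP KO), and the 12 labelled WT from the PyMT+ colony with NR0B2+/+. Both groups carry the transgene, and each tumour was taken when it had reached 2000 mm3. Nr0b2 encodes SHP, a nuclear receptor that represses transcription. The labels give no age, and they do not say whether each tumour came from its own mouse, so p-values measure the spread between these samples.

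Libraries held 18789250 to 38022182 counted reads, and 3 reads in a library correspond to 0.0789 to 0.16 CPM (counts per 1000000 reads). The genotype check went against the labels: 182 Nr0b2 reads lay in the libraries labelled KO, in all 12 of them, and 1 read lay in those labelled WT. Every direction below therefore follows the labels and not a measured loss of the gene. Markers of luminal mammary epithelium were high throughout, with summed levels of 3560 to 5294 CPM in the libraries labelled KO and 3525 to 5853 CPM in those labelled WT. Library KO 12 stood apart. It had the lowest read total, a TMM scaling factor of 0.829, 71 of the Nr0b2 reads, and a shift against long genes: genes of at least 6058.5 exon bases deviated downward relative to genes of at most 2131 bases (median log2 CPM deviation, long minus short: -1.21), where the other libraries lay between -0.116 and 0.284.

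Keratins form the intermediate filaments of epithelial cells, and a filament needs a type I and a type II keratin in equal parts. Luminal mammary cells make Krt8, Krt18 and Krt19, basal and myoepithelial cells make Krt5, Krt14 and Krt17, and the differentiating epidermis replaces the basal pair with Krt1 and Krt10 while its cells build a cross-linked protein shell, the cornified envelope. Desmosomes are the junctions to which these filaments are anchored: desmogleins and desmocollins bridge the gap between cells, and plakoglobin, plakophilins and desmoplakin tie them to keratin.

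Of the 33 genes, 27 passed the expression filter and were tested. One gene, Tchh, had an adjusted p under 0.05 (edgeR, quasi-likelihood, Benjamini-Hochberg over all genes tested) and was higher in the libraries labelled KO, and 0 were called lower. Among all 15820 genes tested, 50 were called (0.316%), 28 higher (0.177%) and 22 lower (0.139%). Since Tchh was already known as a call when the genes were picked, nothing is read from this share. At an unadjusted p under 0.05 there were 7 of the 27, beside 18.9% of all tested genes: Tchh, Krt10 and Sbsn with positive log2 changes and Krt23, Evpl, Ppl and Dsp with negative ones. The median log2 change of the 27 was 0.04, beside 0.01 over all genes tested. In each of the 27 the ranges of the groups overlapped, and 8 of all tested genes (0.0506%) had ranges that did not. The 6 genes that failed the filter, Krt1, Krt6b, Krt13, Krt16, Krtdap and Ivl, are described by their reads.

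**Figure D1:**
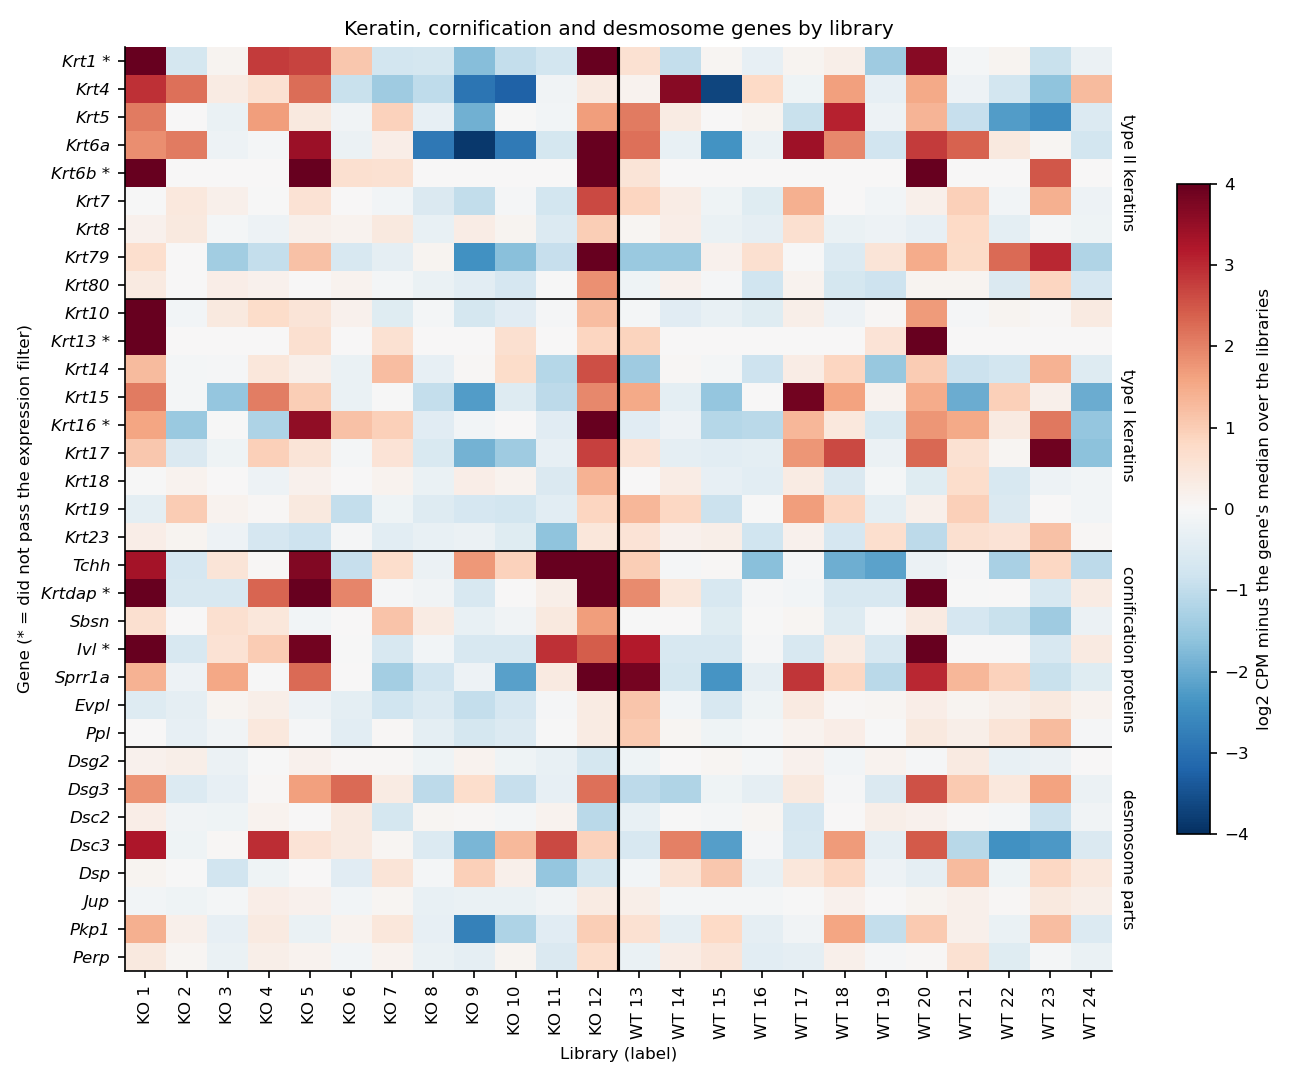
Each cell shows the log2 CPM of a gene (rows, grouped by role) in a library (columns, labelled KO on the left and labelled WT on the right) minus the median of that gene over the 24 libraries, with the colour scale ending at 4 in either direction. KO 12 and KO 1 carry the darkest columns, WT 20 is the column labelled WT with the most dark red cells, and Jup and Dsg2 hardly change colour.

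Levels differed widely between libraries under both labels. KO 12 held the highest level of 13 of the 33 genes and KO 1 of 5, while WT 23 held the highest of 4. More than 2 times the median of the other libraries was reached by 23 genes in KO 12, 18 in KO 1, 18 in WT 20, 13 in KO 5 and 12 in WT 13. For Krt6b and Krt13 that median was 0, so any read passed this cut. The share of all genes above the cut in each library was not counted. At the low end was KO 9, with the lowest level of 9 of the 27 tested genes. High libraries thus occurred under both labels, although the most extreme ones were labelled KO.

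Per kilobase of exon, the simple-epithelial keratins led the set. The median over the 24 libraries was 819 CPM per kilobase for Krt18, 624 for Krt8, 293 for Krt19 and 94.3 for Krt7. Next came the junction proteins Perp at 91.7 and Jup at 69.9 CPM per kilobase, and then the basal keratin Krt14 at 41.2. Its partner Krt5 had 20.1 CPM per kilobase, close to the desmoplakin gene Dsp at 19.1. Epidermal and stress keratins had lower levels, with 0.773 CPM per kilobase for Krt6a, 0.424 for Krt10, 0.168 for Krt16 and 0.135 for Krt1. Tchh (0.734), Dsc3 (0.281), Dsg3 (0.222), Krtdap (0.0965) and Ivl (0.0211) lay in the same range or below it, and Krt6b and Krt13 had a median of 0. The exon lengths join the exons of all transcripts of a gene, and those of Krt10 (10555 bases) and Sbsn (8567 bases) are long for this family, which lowers their level per length.

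Among the type II keratins, Krt8, the luminal partner of Krt18, varied little. It had 766, 1261 and 2203 CPM (lowest, median and highest) in the libraries labelled KO and 863, 982 and 1974 CPM in those labelled WT. KO 12 was highest and KO 11 lowest, and the groups overlapped over nearly the whole range. Its log2 change was 0.15 ± 0.16 (SE, n = 12 each; adjusted p = 0.631 in edgeR). Krt7, a keratin of ductal epithelia, had 75.1, 148 and 937 CPM in the libraries labelled KO and 107, 163 and 404 CPM in those labelled WT. KO 12 was the only library above 404 CPM, and the change was 0.003 ± 0.35 (adjusted p = 0.996 in edgeR). Without KO 12 that change was -0.54, with adjusted p = 0.233.

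Krt5, the basal type II keratin, had 11.7, 44.3 and 189 CPM in the libraries labelled KO and 7.93, 41.5 and 378 CPM in those labelled WT. WT 18 was highest, followed by WT 13 and, at nearly the same level, KO 1, and the change was -0.15 ± 0.54 (adjusted p = 0.901 in edgeR). Without WT 18 it was 0.45 with adjusted p = 0.648. Krt4, a keratin of wet stratified epithelia such as the oesophagus, ran from 0.134 to 15.2 CPM in the libraries labelled KO and from 0.0776 to 24.8 CPM in those labelled WT, with WT 14 highest. Krt80 was steadier, with 6.69 to 38.5 CPM in the libraries labelled KO and 6.02 to 19.5 CPM in those labelled WT, and a change of 0.37 ± 0.25 (adjusted p = 0.4 in edgeR). Krt79, known in mouse skin from the upper hair follicle canal, had 2.44, 9.42 and 294 CPM in the libraries labelled KO and 4.73, 17.2 and 109 CPM in those labelled WT. KO 12 lay far above all others, while 9 of the 12 libraries labelled KO were not above the WT median. Its change was 0.35 ± 0.72 (adjusted p = 0.812 in edgeR), and -1.28 if KO 12 was dropped (adjusted p = 0.207).

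Krt6a, which keratinocytes switch on in wounds and in the hair follicle, had 0.0469, 1.58 and 87.9 CPM in the libraries labelled KO and 0.272, 2.08 and 19 CPM in those labelled WT. KO 12 was more than 4 times above the next library, KO 5 at 19.5 CPM, and KO 9 was lowest, with 1 read. The change was 0.98 ± 0.88 (adjusted p = 0.55 in edgeR) and turned to -0.51 without KO 12, with adjusted p = 0.757. Krt6b, its near copy, had 47.4 CPM in KO 12, 2.94 in KO 5, 1.63 in WT 20 and 1.49 in KO 1. It had 0 reads in 7 libraries labelled KO and in 9 labelled WT, where 3 reads set the limit given above. Transcripts of Krt6a and Krt6b share 97.0% of their bases over 1193 aligned bases (GENCODE transcripts of GRCm38), so reads of one may have been dropped or assigned to the other. A further 524 exon bases of Krt6a, 23.2% of its length, overlap Gm49428 on the other strand, and no strand option was recorded for the counting.

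Among the type I keratins, Krt18 had 776, 1208 and 2994 CPM in the libraries labelled KO and 741, 1029 and 1869 CPM in those labelled WT. KO 12 was highest, 9 of the 12 libraries labelled KO lay above the WT median, and the change of 0.25 ± 0.18 did not pass (adjusted p = 0.461 in edgeR). Reads of Krt18 and of pseudogenes such as Gm5200 (90.5% identity over 1267 bases) and those of Krt8 and Krt8-ps (98.6% over 941 bases) may have been shared. Krt8 and Krt18 rose and fell together across libraries: Pearson's r was 0.933 and Spearman's rho 0.95 (n = 24; both permutation p = 1e-05, the smallest that 100000 resamples give; adjusted over 5 relations 5e-05). Within the libraries labelled KO r was 0.932, within those labelled WT 0.937, and without WT 21 and KO 12, the farthest on the Krt8 axis, 0.91. Without KO 1 and KO 12 it was 0.934. The ratio of Krt18 to Krt8 per length was between 1.11 and 1.75 in the libraries labelled KO and between 1.05 and 1.44 in those labelled WT, highest in KO 12.

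Krt19, found in luminal cells, had 215, 342 and 839 CPM in the libraries labelled KO and 230, 447 and 1321 CPM in those labelled WT. WT 17 and WT 13 were highest, and 4 libraries labelled KO lay above the WT median. The change was -0.51 ± 0.28 (adjusted p = 0.319 in edgeR). Krt23, a less studied type I keratin, had 18.4, 46.5 and 77.5 CPM in the libraries labelled KO and 26.9, 64.8 and 125 CPM in those labelled WT. Only 2 of the 12 libraries labelled KO lay above the WT median, and the change was -0.51 ± 0.23 (adjusted p = 0.226 in edgeR).

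Krt14, the basal partner of Krt5, had 32.0, 77.7 and 422 CPM in the libraries labelled KO and 24.9, 58.5 and 186 CPM in those labelled WT. KO 12 was highest, WT 23 next, and 10 of the 12 libraries labelled KO lay above the WT median. The change was 0.64 ± 0.38 over all libraries (adjusted p = 0.362 in edgeR) and 0.25 without KO 12. Krt17, made by basal cells, hair follicles and wounded skin, had 3.94, 13.6 and 98.3 CPM in the libraries labelled KO and 4.73, 18.5 and 219 CPM in those labelled WT. WT 23 was highest, and the change was -1.02 ± 0.58 (adjusted p = 0.333 in edgeR), or -0.42 without WT 23. Krt15, a keratin of basal and hair bulge cells, ran from 0.798 to 17.4 CPM in the libraries labelled KO and from 0.969 to 59.6 CPM in those labelled WT, with WT 17 highest. Its change was -0.65 ± 0.62 (adjusted p = 0.576 in edgeR).

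The stress keratin Krt16 was concentrated in a single library. KO 12 held 121 CPM from 1877 reads, 490 times the median of the 22 libraries other than KO 1 and KO 12. The next was KO 5 at 3.88 CPM, KO 1 had 0.94 CPM, and the libraries labelled WT lay between 0.0388 and 1.40 CPM with a median of 0.289. Krt16 resembles Gm11597 (97.3% over 880 bases) and Krt14 (87.4% over 1290 bases). Krt14 had 422 CPM in KO 12, and 186 CPM in WT 23, where Krt16 was at 1.40 CPM. Sharing of reads between these genes was not tested.

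Krt10 and Krt1, the pair of the suprabasal epidermis, were high in KO 1. Krt10 had 2.72, 4.72 and 137 CPM in the libraries labelled KO and 3.15, 4.47 and 14.9 CPM in those labelled WT. KO 1 was 31.4 times the median of the 22 libraries, WT 20 and KO 12 (10.6 CPM) followed, and the rest of the groups coincided. The log2 change was 1.64 ± 0.60 (adjusted p = 0.17 in edgeR), and 2.4e-04 without KO 1. Krt1 had 98.9 CPM in KO 1, 7.47 in KO 12 and 5.0 in WT 20, and the median of the 22 libraries was 0.292 CPM. Krt13, the partner of Krt4 in wet epithelia, had 186 reads in KO 1 (6.03 CPM) and 2.61 CPM in WT 20. It stayed below 0.1 CPM elsewhere, with 0 reads in 7 libraries labelled KO and 9 labelled WT.

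**Figure D2:**
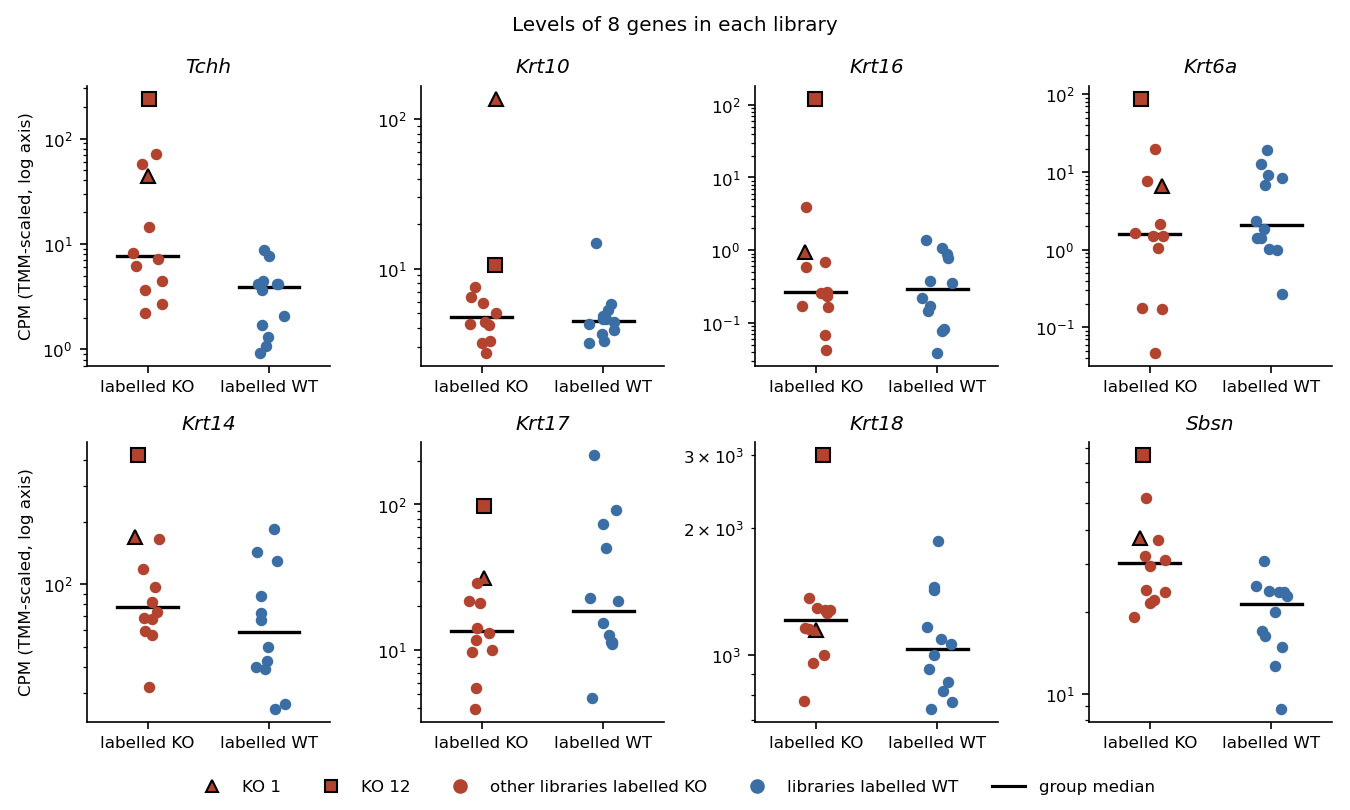
TMM-scaled CPM of 8 genes on log axes in the 12 libraries labelled KO (left) and the 12 labelled WT (right), with a bar at each group median, a triangle for KO 1 and a square for KO 12. The square lies above every other library for Tchh, Krt16, Krt6a, Krt14, Krt18 and Sbsn, the triangle lies highest for Krt10, and a library labelled WT lies highest for Krt17.

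Among the cornification proteins, Tchh encodes trichohyalin, which is cross-linked with keratin filaments in the inner root sheath of the hair follicle. It lies on chromosome 3 at 93348081 to 93356384, plus strand (GRCm39). Tchh had 2.22, 7.66 and 239 CPM in the libraries labelled KO and 0.923, 3.91 and 8.71 CPM in those labelled WT. KO 12 was highest, followed by KO 11 at 72.0, KO 5 at 57.4 and KO 1 at 44.3 CPM. These 4 and KO 9 (14.5 CPM) lay above every library labelled WT, while the other 7 libraries labelled KO lay inside that range. The log2 change was 3.38 ± 0.73 (adjusted p = 0.0381 in edgeR, higher than the WT median in 9 of 12). The authors' deposited table gives 3.36 with an adjusted p of 0.0435. The call ended without KO 12, where the change was 2.45 with adjusted p = 0.062, and without KO 1 and KO 12, where it was 2.27 ± 0.60 with adjusted p = 0.0989. It also ended without any of KO 1, KO 5, KO 7, KO 10, KO 11, WT 13 or WT 15 to WT 24, with adjusted p-values from 0.0502 to 0.0783 and changes from 3.26 to 3.57, and in voom with quality weights (1.89, adjusted p = 0.23), where 0 of the 27 genes were called beside 0.436% of all genes, and 5 had an unadjusted p under 0.05, beside 14.8% of all genes.

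Keratins of the inner root sheath were high in the same 4 libraries. The summed level of Krt25 to Krt28 and Krt71 to Krt75, 9 genes picked from the inner root sheath marker list after the data were seen, was 165 CPM in KO 12, 137 in KO 11, 84.2 in KO 1 and 26.8 in KO 5. The other libraries labelled KO lay between 0.188 and 4.43 CPM. KO 9 was the lowest of them, although its 14.5 CPM of Tchh lay above every library labelled WT. The sums of the libraries labelled WT lay between 0.401 and 22.3 CPM with a median of 1.5. WT 18 held the highest of these, nearly all of it Krt71 (21.9 CPM), at 1.07 CPM of Tchh. Krt74 had no read in KO 12. The whole list of 12 markers also holds Gata3, a luminal mammary gene that makes up most of its sum in every library but KO 12 (130 of 318 CPM there), and the sums overlapped: 121 to 348 CPM in the libraries labelled KO and 71.0 to 344 CPM in those labelled WT. In bulk tissue more cells of a type and more RNA per cell cannot be told apart. The part of hair follicle RNA in the change of Tchh was not tested.

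The libraries high in Tchh differed in other skin markers. Hair shaft keratins (11 genes, picked likewise) summed to 48.6 CPM in KO 11 and 47.3 in KO 1, but to 3.02 in KO 12 and 0.639 in KO 5. Among libraries labelled WT their highest sum was 8.64 CPM, in WT 13. All 15 hair shaft markers of the list found in the files summed to 4.23 to 64.5 CPM in the libraries labelled KO and 6.23 to 50.9 CPM in those labelled WT. Epidermal markers summed to 391 CPM in KO 12, of which Asprv1, a protease of the upper epidermis, made up 331, and to 134 CPM in KO 1. For the remaining libraries labelled KO the range was 20.8 to 49.3 CPM and for those labelled WT 14.4 to 50.1 CPM, the highest being WT 20. KO 1 held Krt77 at 17.7, Flg2 at 10.2 and Flg at 7.81 CPM, whereas KO 12 had no read of Krt77. KO 11 stood out for skeletal muscle, with a marker sum of 5876 CPM, and for adipocytes, with 3093 CPM. The share of each of these tissues in the levels of the genes described here was not tested.

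**Figure D3:**
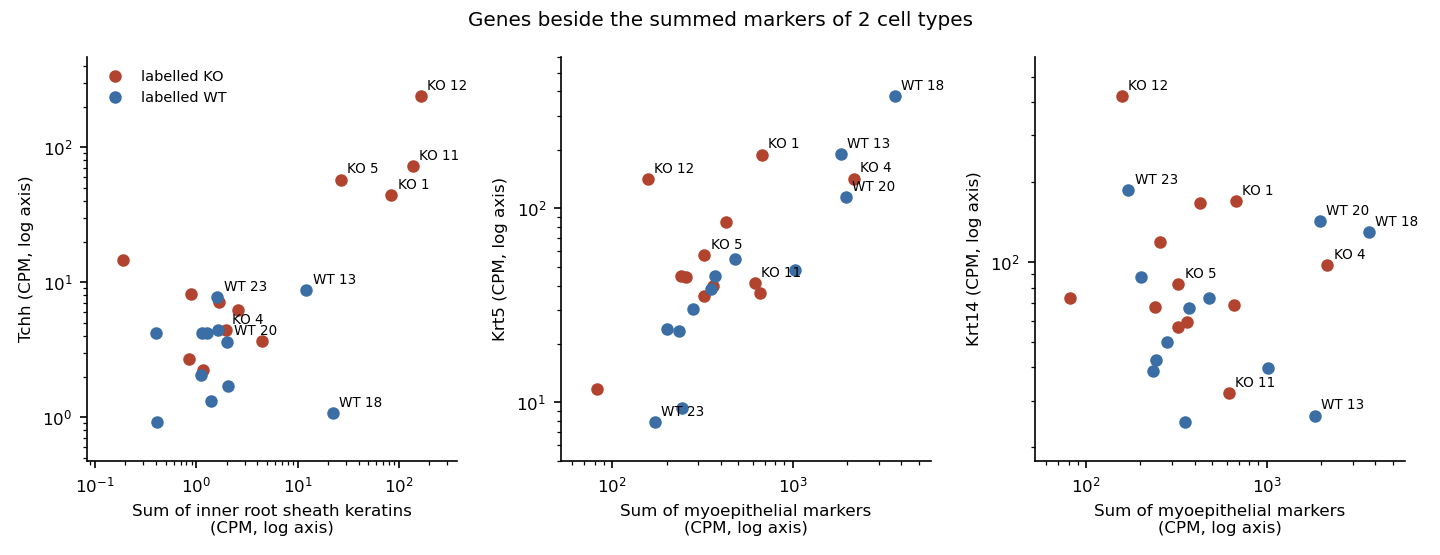
Each point is a library: Tchh against the sum of 9 inner root sheath keratins (left), Krt5 against the sum of 8 myoepithelial markers (middle) and Krt14 against that same sum (right), all in CPM on log axes, with libraries labelled KO in red and those labelled WT in blue. KO 12, KO 11, KO 1 and KO 5 sit apart in the upper right of the Tchh panel, WT 18 is at the upper end of the Krt5 panel, and KO 12 and WT 23 are high in Krt14 at low myoepithelial sums.

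Promoter letters are shown for 5 genes whose levels rested on a few libraries: Tchh and Sprr1a (highest in KO 12), Krt10 (highest in KO 1), and Krtdap and Ivl (highest in KO 1 and WT 20). RefSeq promoters (GRCm38.p6, 250 bases before to 50 after the start) were found for 16 of the 33 genes. The lines give the 150 bases before the start, 5′ to 3′ on the gene's own strand. Capitals mark TATAAA, the TATA box core, and TGANTCA, the core bound by AP-1 factors, both searched on either strand.
Tchh: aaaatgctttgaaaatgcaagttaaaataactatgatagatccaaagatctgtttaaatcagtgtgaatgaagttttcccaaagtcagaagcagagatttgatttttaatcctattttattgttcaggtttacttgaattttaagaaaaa
Krt10: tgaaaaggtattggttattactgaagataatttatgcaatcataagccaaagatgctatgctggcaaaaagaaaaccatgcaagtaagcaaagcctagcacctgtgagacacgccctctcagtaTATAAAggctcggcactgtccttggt
Krtdap: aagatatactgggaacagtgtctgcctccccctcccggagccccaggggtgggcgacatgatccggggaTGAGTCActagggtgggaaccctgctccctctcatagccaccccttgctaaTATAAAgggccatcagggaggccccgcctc
Ivl: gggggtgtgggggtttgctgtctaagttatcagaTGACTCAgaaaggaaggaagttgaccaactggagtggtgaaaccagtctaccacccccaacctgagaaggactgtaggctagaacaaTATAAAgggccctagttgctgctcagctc
Sprr1a: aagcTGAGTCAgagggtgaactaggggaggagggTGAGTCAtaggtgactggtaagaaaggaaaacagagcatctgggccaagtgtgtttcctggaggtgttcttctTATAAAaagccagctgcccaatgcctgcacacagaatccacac
These lie at chr3:93442180-93442329 (Tchh, plus strand), chr11:99389365-99389514 (Krt10, minus), chr7:30787755-30787904 (Krtdap, plus), chr3:92573736-92573885 (Ivl, minus) and chr3:92485882-92486031 (Sprr1a, minus).

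Over the whole 300-base windows, TATAAA was found in 5 of the 16 genes (Sprr1a, Ivl, Krtdap, Krt10 and Krt8), beside 13.6% of the 32851 promoters in the table. It began 26 to 43 bases before the start in the printed genes that hold it, and 1 base before it in Krt8, where a copy on the other strand overlaps. TGANTCA was found in 5 genes (Sprr1a, Ivl, Sbsn, Krtdap and Krt13), beside 7.81% of all promoters. Of these, Sprr1a held 2 copies, 146 and 116 bases before the start, and Krtdap and Ivl 1 each. Neither motif was in the window of Tchh, nor in those of Krt14, Krt5, Krt7, Krt18, Krt23, Krt79, Jup or Dsp. A match describes these letters and does not show that a factor binds there.

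Krtdap encodes a small secreted protein of differentiating keratinocytes. It had 29.4 CPM in KO 1 and 8.82 in KO 12, and WT 20 reached 31.6 CPM, the highest level of any library. The median of the 22 libraries other than KO 1 and KO 12 was 0.0432 CPM, below the value of 3 reads. Ivl, which encodes involucrin, an early envelope protein, had 3.27 CPM in KO 1, 1.70 in KO 5, 0.579 in KO 12 and 3.19 in WT 20. Both genes thus had high libraries under each label.

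Sprr1a, a small proline-rich envelope protein, had 0.58, 2.90 and 80.5 CPM in the libraries labelled KO and 0.504, 3.72 and 42.2 CPM in those labelled WT. KO 12 was highest, then WT 13, WT 20 and WT 17. The change of 0.15 ± 0.77 (adjusted p = 0.933 in edgeR) turned to -1.12 without KO 12. Sbsn, which encodes suprabasin, a secreted protein of the suprabasal epidermis, had 19.1, 30.1 and 75.2 CPM in the libraries labelled KO and 8.76, 21.3 and 30.6 CPM in those labelled WT. Of the libraries labelled KO, 6 lay above the WT maximum and 11 of 12 above the WT median. The change was 0.76 ± 0.21 (adjusted p = 0.102 in edgeR), with 0.59 to 0.83 when single libraries were left out. In DESeq2 its change was 0.76 with adjusted p = 0.0296, and Sbsn and Tchh were the 2 genes of the set called there, beside 2.64% of all genes.

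The plakins of the envelope, Evpl (envoplakin) and Ppl (periplakin), which link it to keratin filaments, were a little lower in most libraries labelled KO. Evpl had 11.8, 17.7 and 29.0 CPM in the libraries labelled KO and 14.8, 24.9 and 49.3 CPM in those labelled WT. Ppl had 33.2, 50.7 and 71.5 CPM in the libraries labelled KO and 48.1, 60.9 and 129 CPM in those labelled WT. For each gene, 2 of the 12 libraries labelled KO lay above the WT median, and KO 9 was lowest. The changes were -0.47 ± 0.16 for Evpl and -0.49 ± 0.16 for Ppl, with adjusted p = 0.155 and 0.145 in edgeR. Evpl shares 1472 exon bases (21.9%) with Gm33250 on the other strand, so part of its reads cannot be assigned to it with certainty.

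Among the desmosome parts, the cadherin Dsg2 was among the steadiest genes of the set. It had 112, 186 and 218 CPM in the libraries labelled KO and 150, 183 and 234 CPM in those labelled WT, with KO 12 lowest. The change was -0.04 ± 0.09 (adjusted p = 0.828 in edgeR). Its partner Dsc2 had 46.1, 101 and 126 CPM in the libraries labelled KO and 53.9, 95.5 and 115 CPM in those labelled WT, again lowest in KO 12, with a change of 0.05 ± 0.14 (adjusted p = 0.854 in edgeR). Both are the forms of simple as well as stratified epithelia.

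Dsg3 and Dsc3, the cadherins of basal stratified epithelium, were low and variable. Dsg3 ran from 0.409 to 4.66 CPM in the libraries labelled KO and from 0.354 to 5.73 CPM in those labelled WT, with WT 20 highest and a change of 0.32 ± 0.49. Dsc3 had 0.375, 2.15 and 15.2 CPM in the libraries labelled KO and 0.224, 0.987 and 8.66 CPM in those labelled WT. KO 1, KO 4 and KO 11 were highest, and 11 of the 12 libraries labelled KO lay above the WT median. Its change of 1.01 ± 0.64 did not pass (adjusted p = 0.384 in edgeR).

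Jup, which encodes plakoglobin, varied least of the 33 genes, with an SD of 0.195 (log2 CPM, n = 24). It had 308, 350 and 470 CPM in the libraries labelled KO and 355, 398 and 500 CPM in those labelled WT, and the change was -0.14 ± 0.08 (adjusted p = 0.348 in edgeR). The groups overlapped, although 3 of 12 libraries labelled KO lay above the WT median. Dsp, the desmoplakin that binds keratin, had 63.4, 179 and 357 CPM in the libraries labelled KO and 143, 248 and 437 CPM in those labelled WT. KO 11 was lowest, WT 21 highest, and the change was -0.49 ± 0.23 (adjusted p = 0.254 in edgeR). Pkp1, the plakophilin of stratified epithelium, had 5.30, 34.1 and 94.7 CPM in the libraries labelled KO and 18.2, 36.6 and 106 CPM in those labelled WT. KO 9 was lowest, and the change was -0.30 ± 0.34 (adjusted p = 0.645 in edgeR). Perp, a tetraspan desmosome protein that p53 and p63 induce, had 118, 184 and 283 CPM in the libraries labelled KO and 125, 165 and 265 CPM in those labelled WT, and its change was 0.04 ± 0.14 (adjusted p = 0.912 in edgeR).

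**Figure D4:**
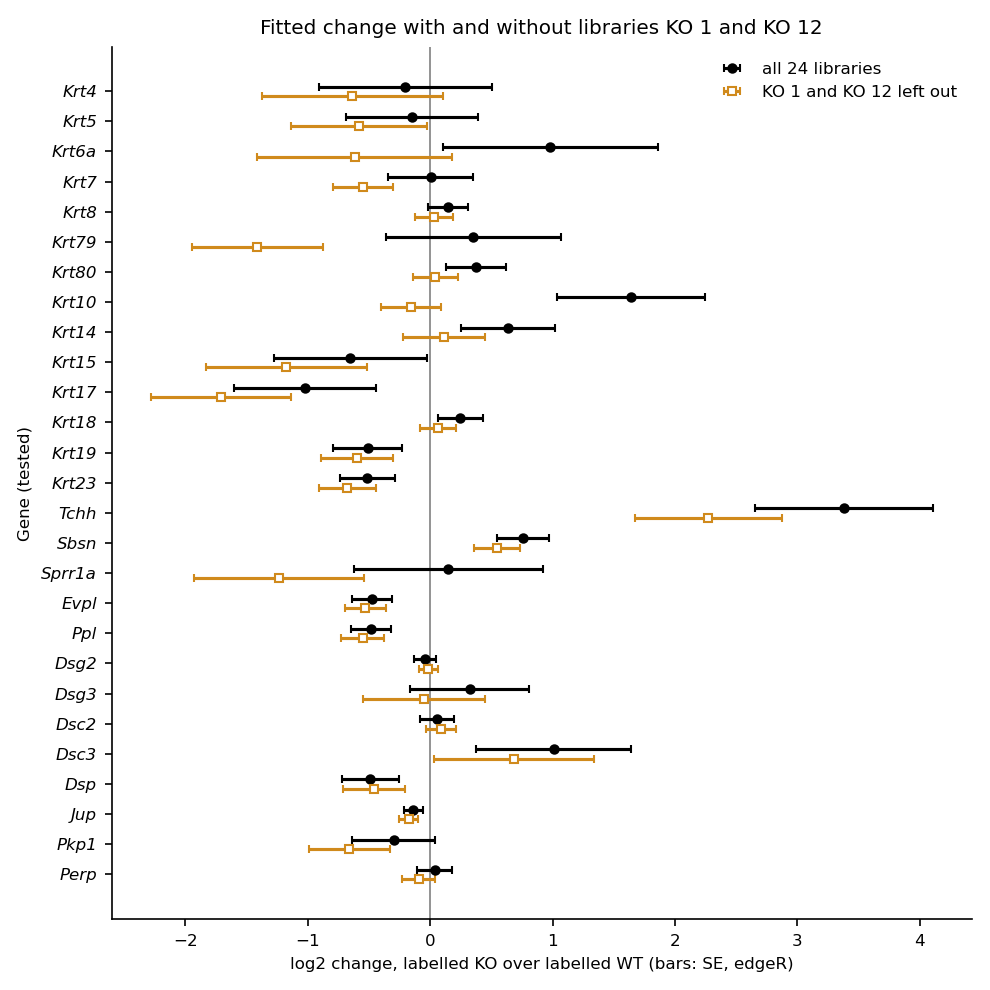
The fitted log2 change (labelled KO over labelled WT) with its SE is shown for the 27 tested genes from all 24 libraries (filled) and with KO 1 and KO 12 left out (open). Tchh lies farthest to the right in both fits, and the open symbols of Krt6a, Krt79, Krt10 and Sprr1a lie on the other side of 0 from the filled ones.

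With KO 1 and KO 12 left out, 0 of the 27 genes were called in edgeR, beside 0.374% of 16026 genes tested, and 9 of the 27 had an unadjusted p under 0.05 (2 with positive and 7 with negative changes), beside 17.5% of all genes. The signs of Krt6a, Krt7, Krt79, Krt10, Sprr1a, Dsg3 and Perp turned negative. Krt79 then had a change of -1.41 ± 0.54 (adjusted p = 0.2 in edgeR), Krt17 of -1.71 ± 0.58 (adjusted p = 0.166) and Sprr1a of -1.24 ± 0.69 (adjusted p = 0.356). Evpl, Ppl, Krt23, Sbsn, Dsp and Jup moved by less than 0.25 between these fits.

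In KO 12, levels differed between short and long genes. Over all tested genes, KO 12 deviated from the median of the other 22 libraries by a median of 0.53 (log2) among the 6247 genes with under 3000 exon bases and of -0.30 among the 9573 longer ones. Of the 14 tested genes of the set under 3000 bases, 14 were positive, with a median of 1.85. Of the 13 longer ones 10 were positive, with a median of 1.02 and a range from -1.08 to 5.81. Over the 27 genes the correlation of the deviation with log2 exon length was weak (r = -0.374, across genes, which are not independent). Among these 27 the highest deviations were those of Tchh, a gene of 5888 exon bases, at 5.81 and Krt6a, one of 2258, at 5.73. Dsg2, Dsc2 and Dsp, which in KO 12 lay below the median of the other 22 libraries, are all among the genes of at least 3000 exon bases. KO 1 showed no such shift over all genes, with medians of 0.04 and 0.01 for short and long genes. Within the set its medians were 1.03 among the 14 genes under 3000 bases and 0.37 among the 13 longer ones. A gap between the short and long genes of the set was thus not limited to KO 12. The part of length in each gene's level in KO 12 was not tested.

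**Figure D5:**
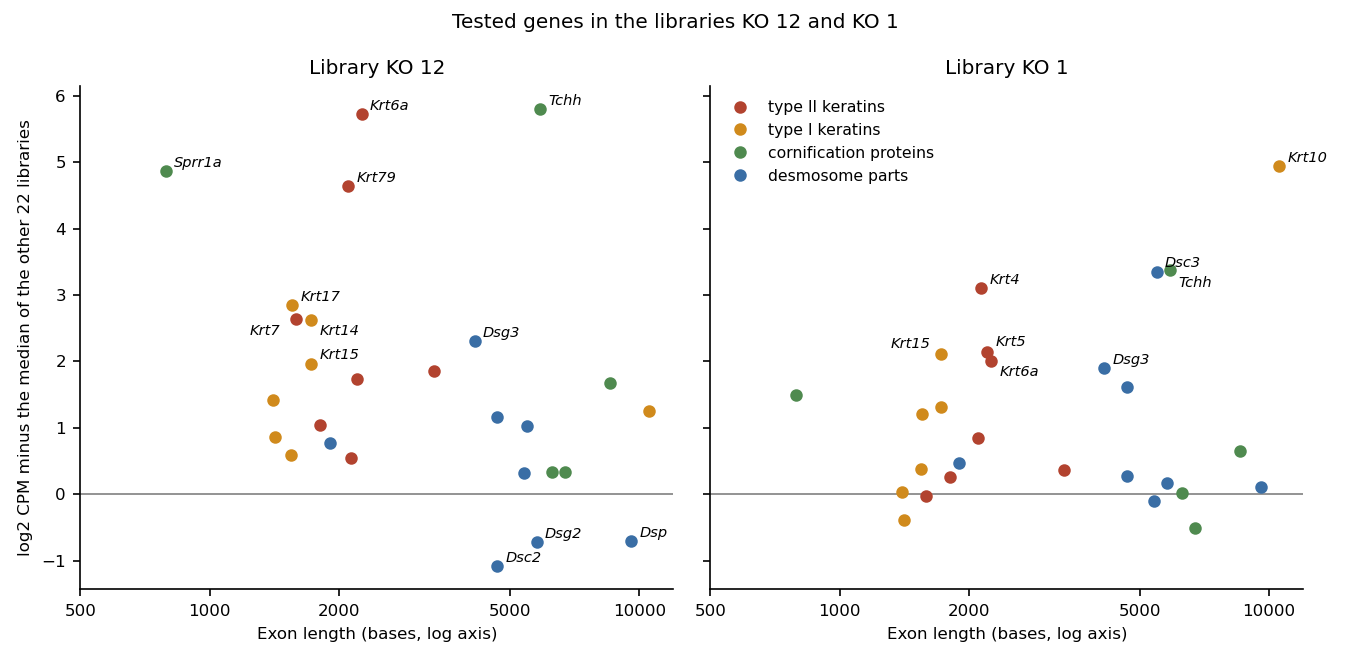
Log2 CPM of each tested gene in KO 12 (left) and KO 1 (right) minus the median of the other 22 libraries, against exon length in bases on a log axis, coloured by role. In KO 12 Krt6a, Tchh, Sprr1a and Krt79 stand between 4.6 and 5.8 and the long desmosome genes Dsc2, Dsg2 and Dsp lie below 0. In KO 1 Krt10 stands highest, at 4.95.

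For the basal pair no relation across libraries passed the test. Krt5 and Krt14 had r = 0.292 (permutation p = 0.163) and rho = 0.319 (p = 0.128; n = 24, adjusted over 5 relations 0.204 and 0.16), with r = 0.644 within the libraries labelled KO and 0.0137 within those labelled WT, 0.435 without WT 23 and WT 18, and 0.108 without KO 1 and KO 12. Krt5 followed the summed level of 8 myoepithelial markers such as Acta2 and Myh11: r was 0.745 (permutation p = 2e-05, adjusted 5e-05) and rho 0.699 (p = 2.3e-04, adjusted 3.8e-04). Within the libraries labelled KO that r was 0.551 and within those labelled WT 0.925, and it was 0.634 without KO 4 and WT 18 and 0.869 without KO 1 and KO 12. For Krt14 and the same sum no relation was detected: r was -0.0758 (permutation p = 0.724) and rho -0.06 (p = 0.78), with -0.164 within the libraries labelled KO, 0.097 within those labelled WT, -0.245 without KO 4 and WT 18 and 0.0372 without KO 1 and KO 12. Myoepithelial sums ran from 81.8 to 2177 CPM in the libraries labelled KO (median 343 CPM) and from 172 to 3690 CPM in those labelled WT (median 361 CPM). In WT 18, the highest, Acta2 made up 1546 and Myh11 813 of the 3690 CPM. Tagln, one of these markers, stayed under 0.6 CPM in all libraries. Which cells the reads of these markers came from was not tested. The ratio of Krt14 to Krt5 per length ran from 0.877 to 8.0 in the libraries labelled KO and from 0.178 to 30.1 in those labelled WT, highest in WT 23. Krt6a and Krt17 had r = 0.669 (permutation p = 3.8e-04, adjusted 6.3e-04) and rho = 0.765 (p = 3e-05, adjusted 7.5e-05), with 0.845 within the libraries labelled KO, 0.539 within those labelled WT, 0.544 without KO 9 and KO 12 and 0.603 without KO 1 and KO 12.

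Tested genes outside the set were ranked by how closely their log2 CPM went with 4 of these genes over the 24 libraries. The tested genes of the set were left out of this ranking. The closest are given as a description, since such values share library composition and the extremes of KO 12. Tchh was closest to Klk8, a skin protease (r = 0.792, or 0.638 without KO 1 and KO 12), followed by Ppm1a, Vsig8, Bin3, Mapkapk5, Mgst1, Hsd17b2 and Pim1 (down to 0.722). Outside the set, Krt18 was closest to Dctn3 (0.863), the tight junction gene Cldn3 (0.856), Cstb, Ap1m2, Lypd3, Brms1, Chmp4b and Krt8-ps (0.834). With Krt8, a gene of the set, its r was higher, at 0.933. Krt14 was closest to Gmeb1 (0.848), Tuba1a, Bzw2, Oxsr1, Anxa8, Ddx19a, Slc29a2 and Imp4 (0.777). Krt6a was closest to Rps7-ps3 (0.811), Cyp4f39, Plekhs1, Adgrf4, Gm15283, S100a14, Padi3 and the tight junction gene Cldn4 (0.719).

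Genes of the same pathways outside the set were not called in edgeR. DESeq2 called 1 of them, Dmkn (adjusted p = 0.00429), beside 2.64% of all genes tested. Over all 15820 genes tested, 8119 changes were positive, with a median of 0.01. Of 44 further cornified envelope genes, 13 were tested and 0 called, with 11 changes positive and 2 negative and a median of 0.46. At an unadjusted p under 0.05 there were 9 higher and 0 lower, beside 18.9% of all tested genes in either direction. That count was 4 of 13 in voom (14.8% of all genes) and 5 of 14 without KO 1 and KO 12 (17.5%), all of them higher. Dmkn, which encodes the epidermal secreted protein dermokine, averaged 50.2 ± 37.8 CPM in the libraries labelled KO and 17.4 ± 11.4 CPM in those labelled WT (SD, n = 12 each). All 12 libraries labelled KO lay above the WT median, with a change of 1.53 ± 0.37 (adjusted p = 0.074 in edgeR). KO 12 was highest for Dmkn, at 155 CPM. Its adjusted p was 0.0729 in voom. Without KO 1 and KO 12 the change of Dmkn was 1.17 ± 0.34 (adjusted p = 0.128 in edgeR). Klk8 averaged 4.44 ± 8.34 CPM in the libraries labelled KO, with 30.7 CPM in KO 12, and 1.29 ± 0.56 CPM in those labelled WT, and Tgm1, the transglutaminase that cross-links the envelope, averaged 33.7 ± 18.8 CPM in the libraries labelled KO and 21.7 ± 6.61 CPM in those labelled WT. Their changes were 1.77 ± 0.53 and 0.63 ± 0.22 (adjusted p = 0.115 and 0.16 in edgeR).

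Of 16 keratinocyte transcription factors, 14 were tested and 0 called, with 7 positive and 7 negative changes. Klf4, which drives barrier formation, changed by 0.73 ± 0.23, Ovol1 by 0.57 ± 0.22 and Sox9 by -0.29 ± 0.12, with adjusted p = 0.135, 0.194 and 0.214 in edgeR. Among 11 hemidesmosome and basement membrane genes, all tested and 0 called, 10 changes were negative, beside 7701 of the 15820 genes tested. Itga3, an integrin subunit that binds laminin, averaged 66.3 ± 10.7 CPM in the libraries labelled KO and 87.2 ± 25.4 CPM in those labelled WT (SD, n = 12 each). Plec, the plakin that holds keratin at the hemidesmosome, averaged 205 ± 48.0 CPM in the libraries labelled KO and 266 ± 51.6 CPM in those labelled WT. The changes of Itga3 and Plec, -0.39 ± 0.13 and -0.38 ± 0.13, did not pass (adjusted p = 0.145 and 0.148 in edgeR). KO 12, with its shift against long genes, was the lowest library for Plec (108 CPM) and for Dst (49.7 CPM), another of the 11. The part of that shift in these levels was not tested. Without KO 1 and KO 12, 2 of the 11 genes were lower and 0 higher at an unadjusted p under 0.05 in edgeR, beside 17.5% of all genes. Of 9 other desmosome genes 5 were tested and 0 called, among them Cdsn, which encodes corneodesmosin, with a change of 0.95 ± 0.34 (adjusted p = 0.164 in edgeR). At an unadjusted p under 0.05 there were 2 higher and 1 lower among the transcription factors, 0 and 2 among the hemidesmosome genes and 1 and 0 among the desmosome genes, beside the 18.9% of all tested genes given above. Of 13 other epithelial keratins 2 were tested, Krt78 at -0.59 ± 0.57 and Krt9 at -0.34 ± 0.43, and neither passed at an unadjusted p under 0.05. Of 6 genes listed as filament partners 0 were called and 3 changes were positive. At an unadjusted p under 0.05, 2 were higher (Krtcap2 and Krtcap3) and 1 lower (Plec). Whether Krtcap2 and Krtcap3 act on keratin filaments was not tested. In DESeq2 and in voom 0 genes of these 5 lists were called.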

How the data were processed

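The authors deposited whole-number counts per gene for each library, produced by featureCounts 2.0.0 from a GRCm39 annotation, per the file headers. STAR and Subread are listed, without versions, per the submitters' processing notes. The recorded command holds neither a strand nor a multi-mapping option, although the kit was stranded per the labels. For Tchh, a log2 fold change and an adjusted p-value were copied from the authors' deposited table.

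Both groups, of 12 libraries each, came from the labels. After filterByExpr and TMM scaling, 15820 genes were tested two-sided with edgeR 4.0.16 (quasi-likelihood) in R 4.3.3, with Benjamini-Hochberg adjustment over all of them and a threshold of 0.05. The script was tested on simulated data. Log2 CPM used a prior count of 2, and correlations 100000 permutations, two-sided. Near copies were searched by sequence with blastn 2.17.0 in GENCODE transcripts (GRCm38). Alternatives were RLE and upper-quartile scaling, no filter, at least 1 CPM in 12 libraries, DESeq2 1.42.0, voom with quality weights (limma 3.58.1), each library left out, and KO 1 and KO 12 left out.

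Named were all 33 genes, of each pathway list up to 3 genes with the smallest p, and the 8 genes outside the set most correlated with each of Tchh, Krt14, Krt18 and Krt6a. Marker genes and those of the closing section were named after their values were seen. The members, lists and the libraries set apart were chosen with earlier results of these data known. Symbols were matched through the authors' table for 26 members and through the RefSeq table by NCBI gene ID for 7. The limit of 3 reads covers counting error only.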

Additional observations from a re-analysis of the deposited data

How the results depend on the processing

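No paired analysis was possible because the libraries labelled KO are numbered 1 to 12 and those labelled WT 13 to 24, so no number is shared. The 50 calls over all genes became 418 in DESeq2 (204 higher, 214 lower) and 9 to 72 in fits without 1 library. Their number stayed within 1.5 times in the other 6 settings, but the genes called differed. Of the 50, 30 were called in voom, 31 with no filter and 37 without KO 1 and KO 12. With RLE scaling 50 were shared, with upper-quartile scaling 46 and with the stricter filter 41. The 1 call among the 33 genes became 2 in DESeq2 (2.64% of all genes called), 0 in voom (0.436%), 0 without KO 1 and KO 12 and 0 to 1 without single libraries. Of the 27 tested genes, 13 kept their direction and side of the threshold in every setting run, and 12 changed sign in at least 1, with no call in either direction. In voom the log2 change was 0.031 for Krt4, 0.29 for Krt5, -0.34 for Krt6a, -0.16 for Krt7, -0.35 for Krt79, 0.10 for Krt15 and -0.0034 for Perp. In DESeq2 it was -0.53 for Krt6a, -1.25 for Krt79, -0.015 for Krt10 and -1.13 for Sprr1a. Without KO 1 and KO 12 it was -0.62 for Krt6a, -0.55 for Krt7, -1.41 for Krt79, -0.16 for Krt10, -1.24 for Sprr1a, -0.050 for Dsg3 and -0.094 for Perp. For Krt7 it was -0.029 with upper-quartile scaling, -0.021 with no filter and -0.014 with the stricter filter. Leaving out single libraries gave -0.66 to 0.57 for Krt4, -0.38 to 0.45 for Krt5, -0.51 to 1.34 for Krt6a, -0.54 to 0.12 for Krt7, -1.28 to 0.80 for Krt79, -0.89 to 0.17 for Krt15, -1.12 to 0.68 for Sprr1a, -0.071 to 0.0030 for Dsg2, -0.0018 to 0.12 for Dsc2 and -0.044 to 0.093 for Perp. DESeq2 was run with its default handling of outlier counts. Its values for Krt6a, Krt79 and Sprr1a lay near those of edgeR without KO 12 (-0.51, -1.28 and -1.12). For Krt10 the DESeq2 value lay near that of edgeR without KO 1 (2.4e-04). The cause of these shifts was not tested. Levels under 0.16 CPM rest on fewer than 3 reads in some libraries, which limits Krt6b, Krt13, Krtdap and Ivl outside their high libraries. The lowest libraries of Krt1, Krt4, Krt6a and Krt16 are limited in the same way.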

Other observations

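Genes of the cornified layer that were not in the set also reached high levels in single libraries, given here as values chosen after they were seen. Rptn, which encodes repetin, an envelope protein of the hair follicle and upper epidermis, had 77.2 CPM in KO 12, 17.3 in KO 1 and 4.35 in WT 20, with a median of 0.115 CPM in the libraries labelled KO and 0.191 CPM in those labelled WT. Cnfn, the envelope protein cornifelin, had 49.2 CPM in KO 12 and 2.20 in KO 1, with a median of 0.0597 CPM in the libraries labelled KO and 0 CPM in those labelled WT. Klk7, a protease that sheds corneocytes, had 32.3 CPM in KO 12, 7.94 in KO 1, 6.44 in KO 5 and 4.24 in WT 20, beside medians of 0.206 CPM in the libraries labelled KO and 0.0665 CPM in those labelled WT. The luminal genes Cldn3, Cldn4 and Cldn7 were also high in KO 12, at 863, 612 and 413 CPM, beside medians of 336, 142 and 170 CPM in the libraries labelled KO and 337, 136 and 143 CPM in those labelled WT. The hormone receptor genes Prlr and Esr1 were low there, at 37.7 and 2.38 CPM, beside medians of 212 and 14.7 CPM in the libraries labelled KO and 265 and 21.7 CPM in those labelled WT. These luminal genes were picked likewise from a list of 12 markers. The sum of that list was 5294 CPM in KO 12 and 3525 to 5853 CPM in the libraries labelled WT. KO 12 also had the shift against long genes, and the part of length in these values was not tested.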
